A study of Mus musculus with 20 samples.

Results

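Dendritic cells take up tumour antigen and present it to T cells, and they fall into subsets that are told apart by the genes they transcribe. This account follows 10 such genes of the mouse, Clec9a, Batf3, Irf8, Flt3, Itgae, Cd209a, Itgax, Zbtb46, Fscn1 and Siglech, through ovarian tumours under 6 treatments. They were chosen by symbol, as 10 of the 55406 genes in the count table, and with earlier results of these data known. All 10 were among the 18144 genes with enough counts to be tested.

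The tumours came from 20 female C57/BL6 mice, read as 1 tumour per animal from the sample titles, after intraperitoneal injection of luciferase-expressing cells derived from ID8, a mouse ovarian surface epithelial cancer line. The genotype of the tumour cells was Trp53-/-Brca1-/- in every group, controls included, so no tumour that retained these genes enters any comparison. Control animals were untreated (n = 3). The PARP inhibitor olaparib, which blocks a DNA repair enzyme, was given by mouth at 40 mg/kg per day (PARPi, n = 3). Immune checkpoint blockade (ICB, n = 3) combined 100 µg of antibody to CTLA-4 with 200 µg of antibody to PD-L1. The other groups received PARPi+ICB (n = 3), PARPi with 20 µg of antibody to the angiogenic factor VEGFA (PARPi+anti-VEGFA, n = 4) or PARPi+ICB+anti-VEGFA, called here the full combination (n = 4). Tumours are numbered within a group as in the labels. Age, treatment length and tumour site are not given in the sources used here. RNA was read from bulk frozen tumour, so tumour, immune and stromal RNA were measured together, and fewer cells of a type cannot be told apart from less RNA per cell.

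Conventional dendritic cells arise from marrow precursors that carry the receptor FLT3 and depend on its ligand. Type 1 cells (cDC1) require the transcription factors IRF8 and BATF3, carry the dead-cell receptor CLEC9A and cross-present antigen to CD8 T cells. Type 2 cells (cDC2) are marked by lectins such as CD209A and CLEC10A, plasmacytoid dendritic cells (pDC) by SIGLECH, and cells that have matured and migrate to lymph nodes by fascin (Fscn1) and CCR7. Several of the 10 genes are not made by dendritic cells alone. Itgax (CD11c) and Irf8 are also transcribed by macrophages, Irf8 by B cells, Itgae (CD103) by T cells, Cd209a by monocyte-derived cells, Zbtb46 by endothelium, and Fscn1 by many carcinoma and endothelial cells.

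Totals per library ran from 26.9 to 34.7 M counts. The 10 genes differed widely in level, which is compared between genes only as CPM (counts scaled to library size) per kilobase of exon (CPM per kb), averaged over the 20 tumours. Itgax was highest at 16.9, followed by Fscn1 at 12.6, Zbtb46 at 8.46, Irf8 at 6.29, Clec9a at 4.43 and Itgae at 3.41 CPM per kb. Batf3 (1.97), Cd209a (1.42), Flt3 (0.817) and Siglech (0.335 CPM per kb) were lowest. The pDC gene Siglech had 13 to 66 counts in a library and Cd209a 24 to 130, against 234 to 677 for Clec9a and 1845 to 3111 for Itgax. All 10 genes were thus read in all 20 tumours. The spread between animals of a group, as a tagwise biological coefficient of variation, was 0.0846 for Zbtb46 and 0.125 to 0.133 for Irf8, Itgax and Fscn1, against 0.245 to 0.260 for Batf3, Cd209a and Siglech.

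Promoters are shown for 3 of the genes because motifs bound by factors of this lineage occurred in them, and because Cd209a and Itgax had called changes under treatment and Zbtb46 had none. RefSeq windows on GRCm38.p6, from 250 bases before to 50 after a start site, were found for 9 of the 10 genes (not for Itgae), with 10 windows in all because Irf8 has a pair of them. Both strands were searched for an interferon response element-like motif (GAAA, any 2 bases, GAAA), an ETS-IRF composite (GGAA, any 2 bases, GAAA), an AP-1 motif (TGANTCA) and a PU.1-like motif (GAGGAAGT). The first 2 motifs can overlap each other. Capitals mark the match, which in Cd209a is on the opposite strand and so reads as the reverse complement of the composite. The windows run 5′ to 3′ on the strand of the gene, at chr8:3748935-3749234 (minus strand) for Cd209a, chr7:128129300-128129599 (plus strand) for Itgax and chr2:181424339-181424638 (minus strand) for Zbtb46. The Zbtb46 window lies inside the gene as annotated in GENCODE, at another start site than the outermost one.
Cd209a: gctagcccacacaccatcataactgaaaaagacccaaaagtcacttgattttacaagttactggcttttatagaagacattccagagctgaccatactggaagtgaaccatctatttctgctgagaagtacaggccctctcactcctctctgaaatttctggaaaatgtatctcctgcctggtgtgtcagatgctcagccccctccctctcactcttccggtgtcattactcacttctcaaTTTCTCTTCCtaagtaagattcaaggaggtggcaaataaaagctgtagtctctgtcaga
Itgax: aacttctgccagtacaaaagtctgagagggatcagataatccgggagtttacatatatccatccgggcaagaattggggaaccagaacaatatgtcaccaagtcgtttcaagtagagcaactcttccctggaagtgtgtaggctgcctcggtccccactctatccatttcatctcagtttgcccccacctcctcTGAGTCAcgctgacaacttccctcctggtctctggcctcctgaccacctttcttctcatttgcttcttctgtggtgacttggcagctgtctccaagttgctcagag
Zbtb46: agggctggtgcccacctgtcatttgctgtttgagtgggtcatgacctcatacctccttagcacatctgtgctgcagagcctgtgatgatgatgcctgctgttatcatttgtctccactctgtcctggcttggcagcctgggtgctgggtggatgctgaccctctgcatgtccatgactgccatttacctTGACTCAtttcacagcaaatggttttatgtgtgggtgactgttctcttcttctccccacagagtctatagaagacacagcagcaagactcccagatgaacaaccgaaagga
The match began 9 bases before the start site in Cd209a, 56 before it in Itgax and 61 before it in Zbtb46. Among 32851 windows of 300 bases, 2.72% held the ETS-IRF composite and 7.81% the AP-1 motif, while 3.44% held the interferon response element-like motif and 3.20% the PU.1-like motif. None of the 4 motifs matched in the windows of Clec9a, Batf3, Irf8, Flt3, Fscn1 and Siglech, which says only that these letters are not there. A match is a description of the letters, and binding was not measured.

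The first question was whether either therapy alone changed these genes. No member passed the edgeR test with PARPi or with ICB alone, although the cDC1 genes and Flt3 stood higher in most treated tumours. With PARPi, edgeR called 0 of 10 members (0.0551% of all genes were called higher), and 5 had an unadjusted p under 0.05 (6.92% of all genes did so and were higher). DESeq2 called 2 (Flt3 and Irf8) and limma 0, where they called 349 and 0 of all genes. In that comparison the treated libraries lay above all controls for Clec9a, Flt3, Irf8, Itgae and Itgax, that is 5 of 10 members against 11.2% of all genes. The members' median log2 fold change was 0.45, against -0.01 over all genes. With ICB, edgeR called 0 of 10 members (1.23% of all genes were called higher), and 4 had an unadjusted p under 0.05 (Clec9a, Flt3, Irf8 and Itgae, against 9.42% of all genes). DESeq2 called 1 (Irf8) and limma 0 with ICB, where they called 1031 and 233 of all genes. Batf3, Clec9a, Irf8 and Itgae lay above all controls there, 4 of 10 members against 11.7% of all genes, and the members' median log2 fold change was 0.39.

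The 3 combinations with PARPi had called members, all of them higher than in controls. PARPi+ICB had 4 called of 10, where 9.58% of all genes were called higher. PARPi+anti-VEGFA had 6 called of 10, where 9.99% of all genes were called higher. The full combination had 7 called of 10, where 12.6% of all genes were called higher. No member was called lower in any of the 3, where 6.52%, 7.80% and 11.5% of all genes were. Median log2 fold changes of the 10 members were 0.56, 0.77 and 0.70 in that order, against -0.02 over all genes in each. With 3 controls it is common that treated tumours all lie above them, as 11.2% of all genes did with PARPi and 11.7% with ICB. That share of all genes is not given here for the combinations, or for all treated tumours together. All 5 comparisons with control use the same 3 control tumours, so their results are not independent of each other, and the counts depended on single libraries. Without control 2, control 3 or PARPi+ICB 3 the count for PARPi+ICB was 2, and without control 3 the count for the full combination was 4. The level of 3 library RNAs, described at the end, was also used as a covariate, chosen after seeing the data. With it, 0, 0 and 4 members were called in the 3 combinations, where 630, 0 and 2471 of all 18144 genes were. No gene at all, member or not, was thus called with PARPi+anti-VEGFA under the covariate. DESeq2 called 5, 7 and 7 members in the 3 combinations, where it called 3444, 3767 and 4737 of all 18144 genes. On the deposited log2 values, limma called 3, 5 and 6 members, where it called 2407, 2641 and 3701 of 18695 genes.

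**Figure D1:**
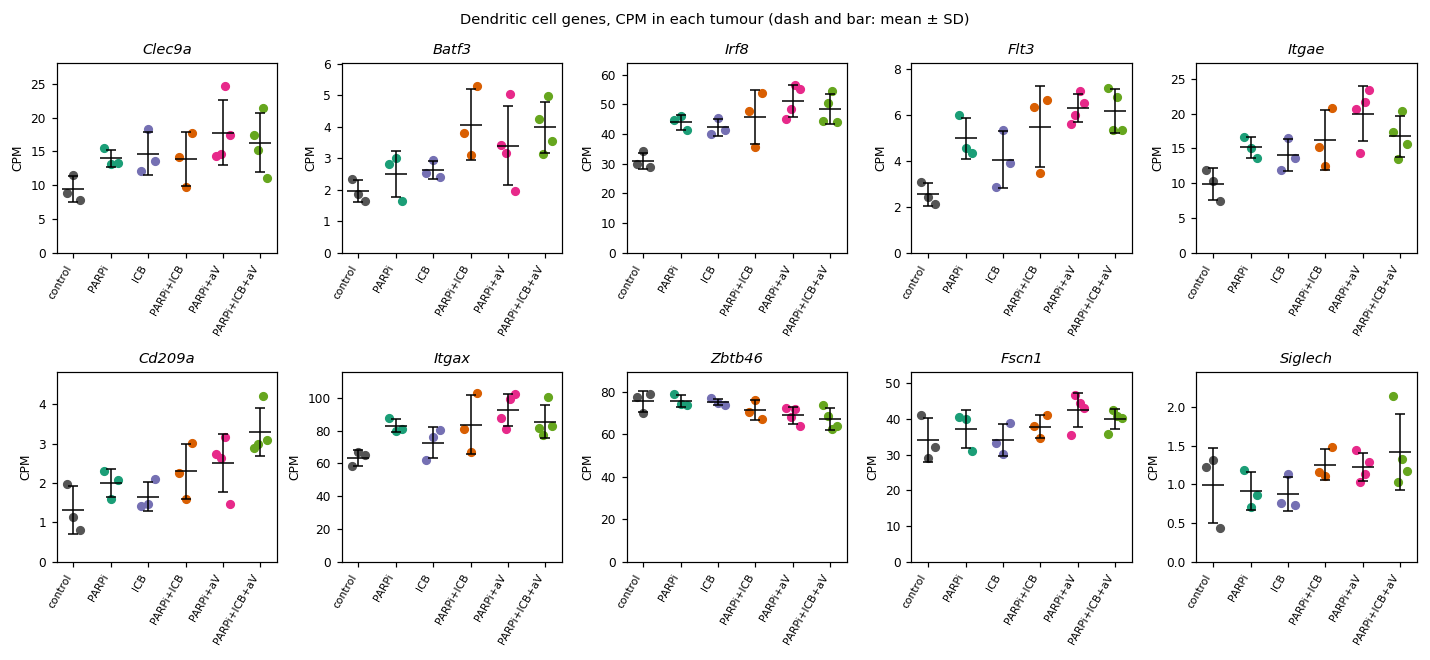
CPM of each of the 10 genes (vertical axis, from 0) in each tumour, by treatment group (horizontal axis; aV is anti-VEGFA), with each point 1 tumour and the dash and bar the mean ± SD of the group (n = 3 or 4). Flt3 and Irf8 lie above the 3 controls in every tumour of the 3 combinations, while Zbtb46 stays between 62.4 and 79.2 CPM throughout. The share of all genes that lie above the controls in this way is not given.

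Flt3 (ENSMUSG00000042817, chromosome 5, 147330741 to 147400489, minus strand), the growth factor receptor of the lineage, had a called change in each of the 3 combinations. It was read at 3.08, 2.42 and 2.12 CPM in the 3 controls, at 5.99, 4.56 and 4.36 CPM with PARPi, and at 2.86, 5.35 and 3.91 CPM with ICB. In the combinations it was read at 6.34, 3.46 and 6.65 CPM with PARPi+ICB, at 5.60, 6.01, 7.04 and 6.50 CPM with PARPi+anti-VEGFA, and at 7.17, 5.35, 6.76 and 5.35 CPM in the full combination. All treated tumours except ICB 1 lay above every control. The log2 fold change was 1.11 ± 0.25 (SE; edgeR adjusted p = 0.00575) with PARPi+ICB, 1.30 ± 0.24 (0.0017) with PARPi+anti-VEGFA and 1.28 ± 0.24 (0.00112) in the full combination. It was 0.97 ± 0.25 (edgeR adjusted p = 0.125) with PARPi and 0.67 ± 0.25 (0.167) with ICB. The antisense gene Gm26597 overlaps Flt3, and whether the counting used strand is not given in the sources used here.

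Irf8 (ENSMUSG00000041515, chromosome 8, 120736358 to 120756694), a transcription factor needed for cDC1 and also active in macrophages and B cells, had the smallest spread among the called genes. Its controls held 29.9, 34.1 and 28.9 CPM. Tumours with PARPi held 44.6, 46.0 and 41.2 CPM and those with ICB 40.0, 45.5 and 41.4 CPM. PARPi+ICB gave 47.6, 35.7 and 53.9 CPM, PARPi+anti-VEGFA 45.0, 48.4, 56.5 and 55.0 CPM, and the full combination 44.2, 50.5, 54.4 and 44.2 CPM. Every one of the 17 treated tumours lay above every control. Fold changes on the log2 scale were 0.56 ± 0.13 with PARPi+ICB (edgeR adjusted p = 0.0058), 0.73 ± 0.12 with PARPi+anti-VEGFA (0.000928) and 0.64 ± 0.12 in the full combination (0.00112). With PARPi it was 0.51 ± 0.13 (edgeR adjusted p = 0.121) and with ICB 0.45 ± 0.13 (0.0721), sizes near those of the combinations. The gene model Gm20388 overlaps Irf8 on the same strand.

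Batf3 (ENSMUSG00000026630, chromosome 1, 191097847 to 191108945), the other transcription factor of cDC1, was called in both combinations that contain ICB. Controls held 2.33, 1.85 and 1.65 CPM, PARPi tumours 2.82, 3.02 and 1.65 CPM, and ICB tumours 2.51, 2.96 and 2.40 CPM. PARPi+ICB tumours held 3.81, 3.09 and 5.29 CPM, PARPi+anti-VEGFA tumours 3.42, 3.18, 5.03 and 1.97 CPM, and those of the full combination 4.25, 3.14, 4.98 and 3.55 CPM. Both combinations with ICB lay above every control, while PARPi+anti-VEGFA 4 fell among them. Against control, Batf3 had a log2 fold change of 1.06 ± 0.30 (edgeR adjusted p = 0.0218) with PARPi+ICB and 1.03 ± 0.28 (0.0138) in the full combination, and 0.80 ± 0.28 (0.0572) with PARPi+anti-VEGFA. The Batf3 call was lost without control 2 or control 3 in both (edgeR adjusted p from 0.0522 to 0.0826), and with PARPi+ICB also without PARPi+ICB 3 (0.124).

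Clec9a (ENSMUSG00000046080, chromosome 6, 129408862 to 129424763), the cDC1 receptor for dead cells, was called in both combinations that contain anti-VEGFA. Controls held 8.85, 11.5 and 7.74 CPM, PARPi tumours 15.5, 13.2 and 13.3 CPM, and ICB tumours 12.2, 18.3 and 13.5 CPM. PARPi+ICB tumours held 14.2, 9.70 and 17.7 CPM, PARPi+anti-VEGFA tumours 14.3, 14.6, 24.7 and 17.4 CPM, and those of the full combination 17.4, 15.3, 21.5 and 11.0 CPM. PARPi+ICB 2 and full combination 4 overlapped the controls, and every other treated tumour lay above them. The log2 fold change was 0.92 ± 0.25 (edgeR adjusted p = 0.0152) with PARPi+anti-VEGFA and 0.80 ± 0.24 (0.0243) in the full combination, and 0.57 ± 0.26 (0.148) with PARPi+ICB. The Clec9a call was lost without control 1, control 3 or treated tumour 3 in both comparisons (edgeR adjusted p from 0.0534 to 0.104), and limma did not call it in the full combination (0.0601). With the covariate of library RNAs the log2 fold change of Clec9a was 0.55 (edgeR adjusted p = 0.632) with PARPi+anti-VEGFA and 0.62 (0.18) in the full combination. Clec1b and Gm43914 overlap Clec9a on the same strand.

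Itgae (ENSMUSG00000005947, chromosome 11, 73090583 to 73147446), the CD103 integrin chain of cDC1 and of tissue-resident T cells, was called in all 3 combinations. Controls held 11.87, 10.3 and 7.37 CPM, PARPi tumours 16.7, 15.1 and 13.6 CPM, and ICB tumours 11.95, 16.5 and 13.6 CPM. PARPi+ICB tumours held 15.2, 12.5 and 20.9 CPM, PARPi+anti-VEGFA tumours 20.7, 14.3, 21.7 and 23.4 CPM, and those of the full combination 17.4, 13.5, 20.4 and 15.6 CPM. Each of the 17 treated tumours lay above the highest control, but ICB 1, at 11.95 against 11.87 CPM, was nearly level with it. PARPi+anti-VEGFA had the highest mean, 20.0 ± 3.97 CPM (SD, n = 4), against 16.2 ± 4.27 (n = 3) with PARPi+ICB and 16.7 ± 2.95 CPM (n = 4) in the full combination, and these 3 groups overlapped. The log2 fold change was 0.72 ± 0.22 (edgeR adjusted p = 0.031) with PARPi+ICB, 1.02 ± 0.21 (0.00302) with PARPi+anti-VEGFA and 0.76 ± 0.21 (0.0122) in the full combination. The Itgae call with PARPi+ICB was lost without control 2 (edgeR adjusted p = 0.0668), control 3 (0.137) or PARPi+ICB 3 (0.185), in a fit of the compared groups alone (0.0727) and with limma (0.089), and that of the full combination without control 3 (0.0721). The covariate of library RNAs ended the Itgae calls in all 3 combinations (edgeR adjusted p from 0.0607 to 0.282). Haspin lies within Itgae on the opposite strand.

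Cd209a (ENSMUSG00000031494, chromosome 8, 3743397 to 3748984, minus strand), the lectin of cDC2 and of some monocyte-derived cells, had the largest fold change of any member in the full combination. Controls held 1.98, 1.14 and 0.794 CPM, PARPi tumours 2.30, 1.61 and 2.07 CPM, and ICB tumours 1.41, 1.46 and 2.09 CPM. PARPi+ICB tumours held 2.27, 1.61 and 3.01 CPM, PARPi+anti-VEGFA tumours 2.74, 2.65, 3.17 and 1.47 CPM, and those of the full combination 2.89, 3.00, 4.21 and 3.10 CPM. Only in the full combination did all tumours lie above every control. The log2 fold change was 1.33 ± 0.31 (edgeR adjusted p = 0.00517) there, a call that no alternative removed. It was 0.94 ± 0.31 (edgeR adjusted p = 0.043) with PARPi+anti-VEGFA, where the Cd209a call was lost with limma (0.071), in a fit of the compared groups alone (0.103) and without control 2, control 3 or PARPi+anti-VEGFA 1, 2 or 3 (0.0746 to 0.189). With PARPi+ICB it was 0.81 ± 0.33 (0.102).

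Itgax (ENSMUSG00000030789, chromosome 7, 128129547 to 128150657), the CD11c integrin of dendritic cells and many macrophages, changed by less than the other called members in both combinations with anti-VEGFA. Controls held 58.1, 67.0 and 64.8 CPM. PARPi+anti-VEGFA tumours held 87.4, 81.2, 99.5 and 102 CPM and those of the full combination 81.6, 77.4, 100.4 and 82.6 CPM, all above the controls. PARPi+ICB tumours held 80.7, 67.1 and 103 CPM, of which the lowest was level with the highest control. Against control, Itgax had a log2 fold change of 0.55 ± 0.13 (edgeR adjusted p = 0.00732) with PARPi+anti-VEGFA and 0.43 ± 0.13 (0.0199) in the full combination, and 0.40 ± 0.13 (0.0517) with PARPi+ICB. In the full combination the Itgax call was lost without control 1 (edgeR adjusted p = 0.0877) or full combination 3 (0.0681). With the covariate of library RNAs Itgax was called in neither combination with anti-VEGFA (edgeR adjusted p = 0.314 and 0.0712).

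Zbtb46, Fscn1 and Siglech passed the edgeR test in no comparison. Zbtb46 (ENSMUSG00000027583, chromosome 2, 181387762 to 181459426, minus strand), a transcription factor that marks conventional dendritic cells among leukocytes, held 77.7, 70.0 and 78.8 CPM in controls and 74.0, 68.7, 62.4 and 64.1 CPM in the full combination. Its log2 fold change there was -0.17 ± 0.07 (edgeR adjusted p = 0.0743), and the highest tumour of the full combination overlapped the lowest control. Fscn1 (ENSMUSG00000029581, chromosome 5, 142960343 to 142973185), an actin-bundling protein, held 41.0, 29.1 and 32.1 CPM in controls and 35.9, 42.6, 40.8 and 40.3 CPM in the full combination, with overlap and a log2 fold change of 0.23 ± 0.13 (0.208). Siglech (ENSMUSG00000051504, chromosome 7, 55768178 to 55778925) held 1.23, 1.31 and 0.430 CPM in controls and 2.14, 1.03, 1.33 and 1.17 CPM in the full combination, with a log2 fold change of 0.52 ± 0.33 (0.277). That SE is the largest among the 10 genes, and a p that misses the threshold does not show that Siglech stayed at 1 level. The snRNA gene Gm22708 overlaps Zbtb46 on the same strand.

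**Figure D2:**
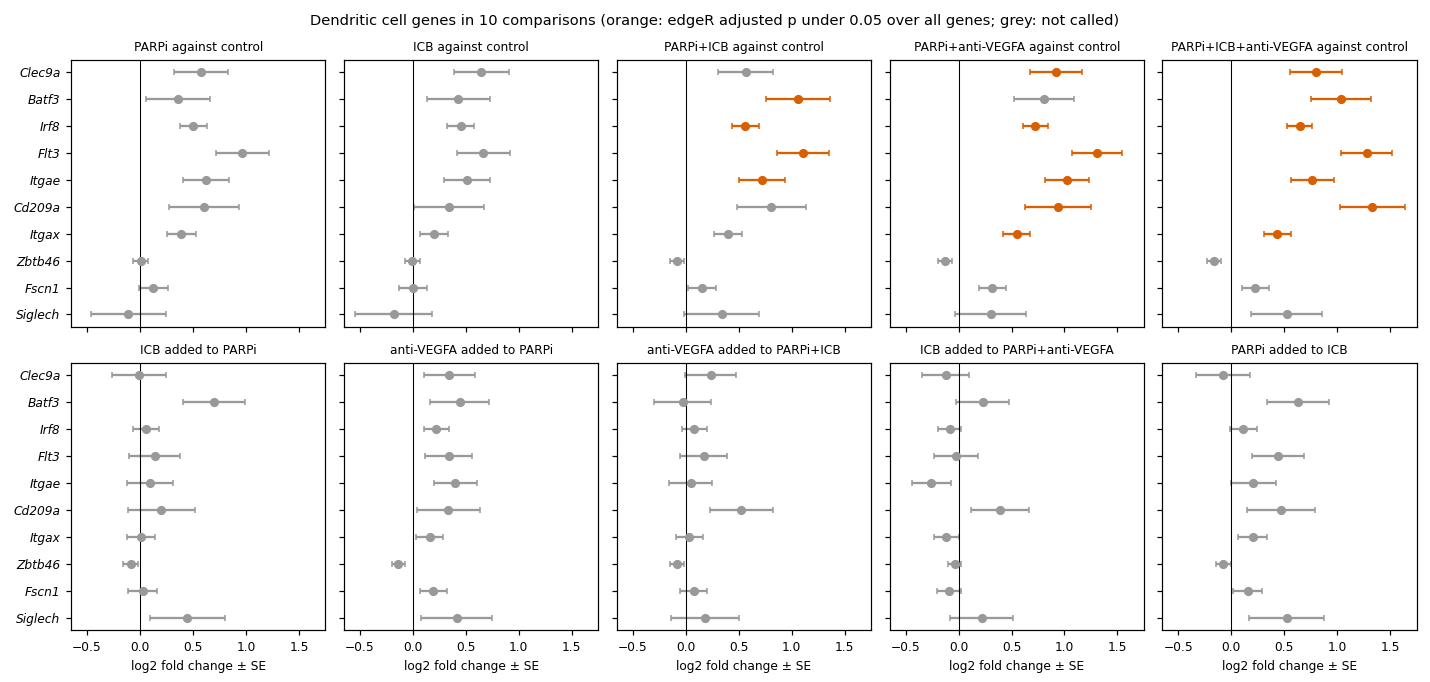
Log2 fold change (horizontal axis; points, with SE bars) of the 10 genes in 10 comparisons, orange where the edgeR adjusted p over all 18144 genes was under 0.05. Called genes occur only in the 3 combinations against control, with 4, 6 and 7 of 10, where 9.58%, 9.99% and 12.6% of all genes were called higher. None occur in the lower row, where 1 treatment is added to another and 0% to 1.26% of all genes were called.

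The design also asks whether a further agent moved these genes beyond the treatment it was added to. No member was called by edgeR, DESeq2 or limma when ICB was added to PARPi, anti-VEGFA to PARPi, anti-VEGFA to PARPi+ICB, ICB to PARPi+anti-VEGFA or PARPi to ICB. Of all genes, edgeR called 1.26%, 0.573%, 0%, 0.0882% and 0.871% in those 5 comparisons. An unadjusted p under 0.05 was found for Batf3 alone (9.03% and 8.89% of all genes were so called higher), with a log2 fold change of 0.70 ± 0.29 (edgeR adjusted p = 0.24) for ICB added to PARPi and 0.63 ± 0.29 (0.293) for PARPi added to ICB. Its PARPi+ICB tumours lay above all tumours of either single treatment, as 12.3% and 10.1% of all genes did. Zbtb46 was lower in all PARPi+anti-VEGFA tumours than in any PARPi tumour, as were 7.03% of all genes. Cd209a changed by 0.53 ± 0.30 on the log2 scale (edgeR adjusted p = 0.999) when anti-VEGFA was added to PARPi+ICB.

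Whether the effects of 2 treatments add up was tested as an interaction. Neither the interaction of ICB with PARPi nor that of ICB with anti-VEGFA under PARPi called any of the 10 members with edgeR, DESeq2 or limma, and 0% of all genes were called with edgeR in either. Irf8 alone had an unadjusted p under 0.05, for ICB with PARPi (2.68% of all genes were so called lower), with a log2 difference of -0.39 ± 0.18 (edgeR adjusted p = 0.958). That Batf3 was called with ICB in the combination, and Clec9a, Cd209a and Itgax with anti-VEGFA, is therefore not shown to be a difference between the combinations, and PARPi+ICB was not compared with PARPi+anti-VEGFA.

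The members were next set beside the general leukocyte content. Ptprc (CD45), carried by all leukocytes, rose by 0.87 ± 0.18 on the log2 scale (edgeR adjusted p = 0.0039) with PARPi+ICB, 0.89 ± 0.17 (0.00258) with PARPi+anti-VEGFA and 0.90 ± 0.17 (0.00146) in the full combination. Counts per 100 Ptprc counts are described here without a test. A gene that rises less than Ptprc falls on this scale by construction, also where its own CPM does not change. The median log2 fold change of all genes was -0.02 in each combination, and the share of all genes below the controls is not given. Itgax lay below the controls on this scale, at 74.6 ± 6.72 in controls (SD, n = 3) and 54.1 ± 3.14 (n = 3), 59.1 ± 5.05 (n = 4) and 54.0 ± 3.25 (n = 4) in the 3 combinations, with no overlap. Zbtb46 was at 89.8 ± 16.3 in controls and 48.5 ± 15.9, 44.6 ± 8.40 and 43.2 ± 8.29 in the combinations, also without overlap. Clec9a, at 10.9 ± 1.04 in controls, was at 8.84 ± 0.43, 11.2 ± 2.29 and 10.2 ± 1.72 in the same 3 groups, below all controls with PARPi+ICB alone. Irf8, at 36.4 ± 1.84 in controls, was at 29.6 ± 1.83, 32.9 ± 4.81 and 30.7 ± 4.40, likewise below all controls with PARPi+ICB. Flt3, at 3.02 ± 0.81 in controls, was at 3.49 ± 0.56, 4.04 ± 0.62 and 3.89 ± 0.50, and Cd209a went from 1.57 ± 0.85 to 2.07 ± 0.16 in the full combination, both with overlap. Relative to Ptprc, the ranges of Clec9a, Flt3, Batf3, Itgae and Cd209a in PARPi+anti-VEGFA and the full combination thus overlapped the control range.

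**Figure D3:**
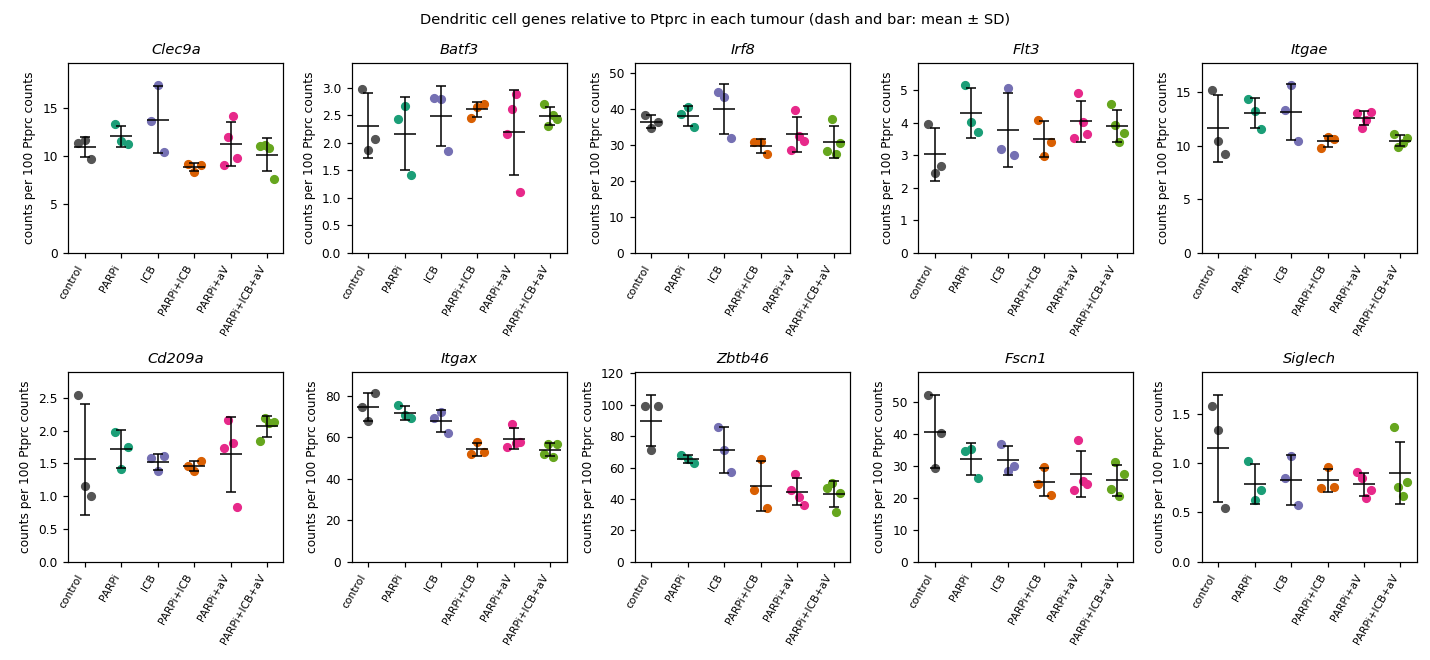
Counts of each gene per 100 counts of Ptprc (vertical axis, from 0) in each tumour, by treatment group (aV is anti-VEGFA), with the dash and bar the mean ± SD. Itgax and Zbtb46 lie below the controls in all tumours of the 3 combinations, while Flt3 and Cd209a overlap the controls. A gene that rises less than Ptprc falls on this scale by construction.

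Markers of other cells that transcribe some of these genes moved in the same comparisons. All 12 genes of a T cell list were called higher in each of the 3 combinations, and their summed level was 67.6 to 87.3 CPM in controls and 170 to 268 CPM in the full combination. Of 11 macrophage genes, 9, 9 and 8 were called higher in the 3 combinations in order, with a summed level of 1160 to 1320 CPM in controls and 1810 to 2230 CPM in the full combination. Monocyte genes were called higher for 4, 5 and 5 of 6, and B cell genes for 5, 2 and 5 of 9, with 1 B cell gene called lower with PARPi+ICB and 1 in the full combination. Genes of cytotoxic T and NK cells, which also make Ccl5, were called higher for 9, 10 and 11 of 11, with a summed level of 13.4 to 21.6 CPM in controls and 40.6 to 58.8 CPM in the full combination. All 8 plasma cell genes were called higher in each combination. Fibroblast genes were called higher for 4, 5 and 6 of 8, with 1 lower with PARPi+ICB, and adipocyte genes for 2, 5 and 5 of 5 tested. Neutrophil genes were called higher for 2 of 5 tested in each, and of 6 erythroid genes 1 was called lower in each of the first 2 combinations. Endothelial genes were called in neither direction for any of 8, where edgeR was the tool. In a tumour epithelial and mesothelial list, 5 of 9 genes were called lower and 2 higher in each combination. The part of these cells in the changes of the members and of the list genes below was not tested.

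Within treatment groups the members also varied together. After the mean of each group was removed, Pearson's r of log2 CPM over the 20 tumours was 0.83 between Clec9a and Irf8, 0.74 between Clec9a and Flt3 and 0.74 between Flt3 and Itgae. Clec9a had r of 0.85 with Xcr1, the other surface receptor of cDC1, and 0.82 with the T cell gene Cd3e. Itgax had r of 0.93 with Ptprc. The keratin gene Krt8, of the tumour epithelium, had r of -0.84 with Clec9a and -0.88 with Itgax. Krt18 had r of -0.72 and -0.78 with them, but a further keratin gene, Krt7, had 0.11 and 0.02. Zbtb46 went the other way, with r of 0.56 with Krt8, -0.61 with Irf8 and -0.57 with the macrophage gene C1qa. With the endothelial genes Pecam1 and Cdh5 the r of Zbtb46 was -0.12 and -0.31. Cd209a had r of 0.64 with Batf3 and 0.28 with Irf8, and Fscn1 had r between -0.17 and 0.44 with the other 9 members. All these values share the library, its depth and its cell content, and are given as descriptions.

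**Figure D4:**
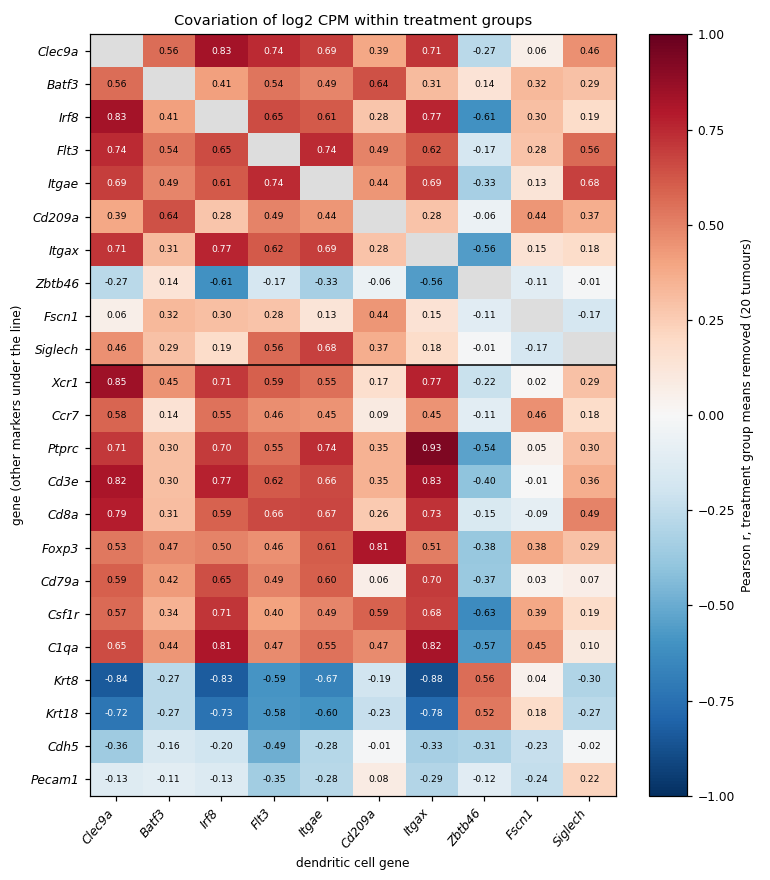
Pearson's r of log2 CPM between each of the 10 genes (columns) and the members and marker genes (rows) over 20 tumours, after the mean of each treatment group was subtracted. Clec9a, Irf8, Flt3, Itgae and Itgax have r of 0.61 or more with each other, Zbtb46 has negative r with these 5 genes and positive r with Krt8 and Krt18, and Fscn1 has r of at most 0.46 in any row.

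The genes of highest r differed between the members, and which cells the RNA of each member came from was not tested. Zbtb46 stood above Irf8 and Clec9a per kilobase, did not follow Ptprc (r of -0.54) and had its highest r within groups with Vsig10 (0.85), Stap2 (0.83) and Ilf2 (0.82) among 12992 genes compared. Fscn1 had its highest with Dennd4b (0.87), Pih1d1 (0.86) and Eipr1 (0.83). Itgax went with Themis2 (0.95), Irf8 with Limd2 (0.90), Clec9a with Pip4k2a (0.92) and Tlr1 (0.91), and Itgae with Adam19 (0.88) and H2-DMb2 (0.88). Flt3 went with Ccl22 (0.86), and nearly as closely with Nipal1 (0.84) and Gmppb (0.84). Cd209a went with Ubqln2 (0.87) and Foxp3 (0.81), Batf3 with Shbg (0.83) and Siglech with Chac2 (0.91). Those of Flt3, Cd209a, Batf3 and Siglech come from few counts of the member, and nothing is read from them.

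Further genes of each subset were followed by lists. In a cDC1 list of 10 genes without the members, edgeR called 1 higher with PARPi+ICB, a share near the 9.58% of all genes, 6 higher and 1 lower with PARPi+anti-VEGFA, and 4 higher and 1 lower in the full combination. Wdfy4, needed by cDC1 for cross-presentation, rose from 23.6 ± 4.73 CPM in controls (SD, n = 3) to 39.0 ± 9.41, 45.8 ± 4.95 and 41.9 ± 4.98 CPM in the 3 combinations, log2 fold changes of 0.73 ± 0.17 (edgeR adjusted p = 0.0063), 0.96 ± 0.16 (0.000905) and 0.83 ± 0.16 (0.00124). Xcr1, at 4.55 ± 1.14 CPM in controls, rose to 9.42 ± 3.19 CPM with PARPi+anti-VEGFA (1.05 ± 0.25; 0.00772) and to 8.50 ± 1.22 CPM in the full combination (0.90 ± 0.25; 0.0133), a call lost there without control 1 (0.0704). With PARPi+ICB Xcr1 was at 6.92 ± 1.74 CPM (log2 fold change 0.61 ± 0.26; edgeR adjusted p = 0.122). The count of called cDC1 genes in the full combination was 1 without control 1, 3 without control 2, 3 without the libraries with acinar RNA and 3 in a fit of the compared groups alone. With the covariate of library RNAs the list had 0, 0 and 1 called genes in the 3 combinations. Rab7b was the list gene called lower with PARPi+anti-VEGFA, by a log2 fold change of -0.26 ± 0.06 (edgeR adjusted p = 0.00726).

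In a cDC2 list of 11 genes, of which 10 could be tested, edgeR called 5 higher and 1 lower in each of the 3 combinations, and 1, 0 and 4 in all with the covariate of library RNAs. Clec10a, a lectin of cDC2 and of macrophages, rose from 2.82 ± 1.02 CPM to 7.65 ± 2.60, 8.17 ± 2.63 and 9.16 ± 3.13 CPM, with log2 fold changes of 1.44 ± 0.32 (edgeR adjusted p = 0.00493), 1.54 ± 0.30 (0.00265) and 1.70 ± 0.30 (0.000829). Sirpa, an inhibitory receptor of cDC2 and macrophages, rose from 82.5 ± 9.60 to 145 ± 15.5 CPM in the full combination (0.81 ± 0.14; edgeR adjusted p = 0.000676). Irf4, a factor of cDC2 and also of plasma cells and activated T cells, rose from 11.7 ± 1.45 to 62.9 ± 21.8, 44.3 ± 8.02 and 52.9 ± 23.2 CPM, with edgeR adjusted p of 0.00016, 0.000632 and 0.000125. It was also the list gene called with ICB alone, with a log2 fold change of 1.60 ± 0.30 (edgeR adjusted p = 0.0154), a call lost without control 1 (0.0518) or control 2 (0.0611), with limma (0.0887) and with the covariate (0.256). Of 8 plasma cell genes 6 were called higher with ICB, and they summed to 836 to 1180 CPM in controls and 2050 to 2700 CPM with ICB. Esam fell by 0.54 ± 0.12 on the log2 scale with PARPi+ICB (edgeR adjusted p = 0.00706), the 1 gene of this list called lower there. Esam is also a gene of endothelial junctions.

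Among 14 genes of mature, migratory dendritic cells, all tested, edgeR called 4 higher and 1 lower with PARPi+ICB, 7 higher with PARPi+anti-VEGFA, and 7 higher and 1 lower in the full combination. Il4i1, a secreted amino acid oxidase, rose from 3.43 ± 0.31 to 6.86 ± 1.24, 7.85 ± 0.79 and 7.73 ± 1.60 CPM, and edgeR adjusted p was 0.0011, 0.000384 and 0.00017. Apol7c rose from 2.23 ± 0.29 to 9.14 ± 6.41, 7.76 ± 2.16 and 9.25 ± 3.33 CPM, and edgeR adjusted p was 0.00283, 0.00485 and 0.00141. Ccl22, which attracts CCR4-bearing T cells, rose from 8.65 ± 0.82 to 20.6 ± 3.45 CPM with PARPi+anti-VEGFA (log2 fold change 1.25 ± 0.18; edgeR adjusted p = 0.00039), and all 4 of its values lay above those of the controls. Fscn1, usually named with these genes, was not called in any of the comparisons. The count of this list was 2 with PARPi+ICB without control 3 or PARPi+ICB 3, and 3 without PARPi+ICB 1. It was 4 with PARPi+anti-VEGFA without control 3 or PARPi+anti-VEGFA 4, and in the full combination 4 without control 3 and 5 without full combination 3. With the covariate of library RNAs it was 0, 0 and 4 in the 3 combinations.

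Of 12 pDC genes other than Siglech, all tested, edgeR called 5 higher in each combination, and 1, 0 and 5 with the covariate of library RNAs. Ly6d rose from 4.03 ± 1.38 CPM to 18.1 ± 3.94, 8.82 ± 0.71 and 17.2 ± 2.17 CPM, and Pacsin1 from 1.23 ± 0.39 to 2.89 ± 0.74, 3.61 ± 0.84 and 3.43 ± 0.91 CPM. For Ly6d edgeR adjusted p was 6.42e-05, 0.00106 and 2.61e-05, and for Pacsin1 0.00662, 0.00129 and 0.000971. Ly6d is also known from B lineage precursors and epithelium, and B cell list genes summed to 41.6 to 51.0 CPM in controls and 85.1 to 190 CPM in the full combination. Their part was not tested. Siglech itself, the defining surface gene of the subset, was not called. With the single therapies Ly6d was called with ICB (1.62 ± 0.20; edgeR adjusted p = 0.00218), and Ly6d with PARPi (1.20 ± 0.20; 0.035) lost its call without control 1 or 2 or PARPi 1 or 2 (0.122 to 0.165). Cox6a2 was called with ICB (1.45 ± 0.37; 0.0494), and this Cox6a2 call was lost without any one of the 6 libraries (0.0560 to 0.188).

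Factors that grow or attract dendritic cells were called higher for 5, 6 and 7 of 8 tested genes of a list of 11 in the 3 combinations in order. Flt3l, the ligand of FLT3, went from 10.3 ± 3.00 CPM in controls to 14.9 ± 0.72, 14.3 ± 1.22 and 18.6 ± 2.84 CPM. Its log2 fold change in the full combination was 0.86 ± 0.16 (edgeR adjusted p = 0.000953) and held without any single library. The Flt3l calls with PARPi+ICB and PARPi+anti-VEGFA were lost without control 1, at 0.131 and 0.188, without control 2, at 0.0690 and 0.0851, without any single tumour of PARPi+ICB and without PARPi+anti-VEGFA 1, 3 or 4. Ccl5, a chemokine that recruits cDC1 and T cells, rose from 4.73 ± 0.59 to 12.1 ± 3.79, 12.4 ± 4.54 and 15.3 ± 3.29 CPM (edgeR adjusted p = 0.00336, 0.00236 and 0.000361). Csf2ra, a chain of the GM-CSF receptor, rose from 78.3 ± 3.61 to 107 ± 14.1 CPM in the full combination (0.45 ± 0.09; edgeR adjusted p = 0.00258). With ICB its call (0.38 ± 0.10; edgeR adjusted p = 0.0489) was lost without any one of the 6 libraries (0.0660 to 0.164). The list count with PARPi+ICB was 3 without control 1 or PARPi+ICB 3 and in a fit of the compared groups alone, and that of the full combination was 4 without full combination 1 or 3 and with limma. With the covariate it was 1, 0 and 4.

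Transcription factors of the lineage other than Irf8, Batf3 and Zbtb46 were called higher for 5, 4 and 5 of 9 genes, and lower for 1 in the full combination, and 3, 0 and 5 were called with the covariate. Spi1, which encodes PU.1 of all myeloid cells, rose from 13.8 ± 1.95 to 24.6 ± 7.33, 25.4 ± 2.77 and 24.0 ± 3.42 CPM (edgeR adjusted p = 0.00318, 0.00182 and 0.00216). Ikzf1, a factor of all lymphocytes and of dendritic cells, rose from 15.5 ± 1.43 to 33.2 ± 9.10, 30.8 ± 4.51 and 34.5 ± 8.79 CPM (edgeR adjusted p = 0.000978, 0.0017 and 0.000325).

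A further measure moved with the groups. Rn7sk, Lars2 and Mir6236 are RNAs read here as a sign of how a library was made, and their log2 CPM averaged 4.64 ± 0.18 in controls (SD, n = 3), 3.68 ± 0.66 (n = 3) with PARPi, 2.94 ± 0.18 (n = 3) with ICB, 3.25 ± 0.29 (n = 3) with PARPi+ICB, 2.75 ± 0.04 (n = 4) with PARPi+anti-VEGFA and 3.79 ± 0.69 (n = 4) in the full combination. From the lowest to the highest mean, the treated groups were PARPi+anti-VEGFA (6 called members), ICB (0), PARPi+ICB (4), PARPi (0) and the full combination (7). With the mean log2 CPM of these 3 RNAs in each library as a covariate, edgeR called 630, 0 and 2471 of all 18144 genes in the 3 combinations. The losses with PARPi+anti-VEGFA given above by gene and list were thus shared by every gene. The 4 members called in the full combination were Batf3, Cd209a, Flt3 and Irf8. The log2 fold change of Irf8 under the covariate was 0.59, 0.76 and 0.66, and that of Flt3 with PARPi+ICB 0.76 and with PARPi+anti-VEGFA 0.84. Because the measure differs between controls and treated tumours, the covariate and the treatment are partly confounded, and which of them the lost calls belong to cannot be told apart. Pancreatic acinar genes averaged above 2 log2 CPM in ICB 3, PARPi+anti-VEGFA 1 and 4 and full combination 2. Without these 4 libraries 4, 7 and 7 members were called, where 3121, 2454 and 3746 of 18336 genes were.

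The deposited values place the members in another order. The authors' second table is labelled as RPKM of coding sequence on a log2 scale, but the length implied by it for each of the 10 genes was 0.986 times the whole genomic span, introns included, and 2.84 to 12.2 times the exon length. Over 12970 genes with at least 10 counts in every library, 99.7% lay within 2% of a ratio of 0.987. On that scale Flt3, with long introns, is the lowest of the 10 genes at 0.0733 RPKM and Siglech is ninth at 0.107 RPKM. Per kilobase of exon, Flt3 was above Siglech by 0.817 to 0.335 CPM per kb. Itgae was below Cd209a by RPKM (0.278 and 0.408) and above it per kilobase of exon (3.41 and 1.42 CPM per kb). Differences between samples within a gene do not depend on the length, except through the 1 added before the logarithm. For Flt3 that addition made a log2 fold change of 1.28 in the full combination a difference of 0.07 in the deposited values, still called by limma.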

How the data were processed

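RNA of 20 bulk tumours was sequenced as stranded whole-transcriptome libraries, per the labels' protocols. STAR, HTSeq and GRCm38 are named in the submitters' processing notes, without versions, annotation release or strand setting. The deposited table of read counts per Ensembl gene, not normalized, was the basis of every test. The authors' other table holds log2 values of RPKM with 1 added, and served only as an alternative and for the check of gene lengths.

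Counts of all 20 libraries were fitted in R 4.3.3 with edgeR 4.0.16 (quasi-likelihood F test, TMM scaling with factors of 0.958 to 1.03, 1 coefficient per treatment group). The filterByExpr step (min.count 10, min.total.count 15) left 18144 genes. In each of 10 pairwise contrasts and 2 interactions, Benjamini-Hochberg adjustment ran over all genes tested, with a threshold of 0.05 for a call. SE was taken from the log2 fold change and its F statistic, as the size of the change over the root of F. Correlations used log2 CPM with a prior count of 2. Positions, exon lengths and list symbols came from GENCODE M21 on GRCm38, where 55227 identifiers matched, and unmatched identifiers held 0.0014 to 0.00196% of the counts. No 2 libraries held identical counts, and replicates differed beyond counting noise (chi-squared over its degrees of freedom from 19.7 to 144).

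Alternatives were the size factors of DESeq2 1.42.0, its Wald test, no filter, replicate number as a block, the compared groups alone, limma 3.58.1 on the deposited log2 values, each library left out, and, chosen after seeing the data, the removal of 4 libraries with acinar RNA and a covariate of 3 library RNAs. Named genes were the 10 members, Ptprc, up to 4 genes per list and comparison with the smallest p, and the 3 genes of highest r for each member among 12992 with a mean of at least 1 CPM. Members, lists and comparisons were chosen with earlier results of these data known. The p-values set differences between groups against the spread between tumours within groups, read as 1 tumour per animal.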

Additional observations from a re-analysis of the deposited data

Results flagged for a closer look

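In the full combination, the highest of the 4 values of Cd209a, 4.21 CPM in full combination 3, stood apart from the other 3, which lay between 2.89 and 3.10 CPM. The gap, divided by the range of the group, exceeded the 95% critical value of Dixon's test for groups of 4. A total of 20 groups of 4 tumours were examined in this way and 1 stood out, and chance gives such a gap in about 1 of 20 groups. The call of Cd209a in the full combination held without that tumour.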

How the results depend on the processing

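Counts of called members in the comparisons with control were within 1.5 times the reported ones under the size factors of DESeq2, no filter on low counts and limma, and no called member or called list gene changed direction under any alternative that was run. For PARPi, DESeq2 called 2 and a fit of the compared groups alone 2, against 0 by edgeR, and for ICB both called 1 against 0. Of all genes, DESeq2 called 349 for PARPi and 1031 for ICB, and the fit of the compared groups alone 171 and 287. With the covariate of library RNAs the counts were 0 for PARPi+ICB, 0 for PARPi+anti-VEGFA and 4 for the full combination. Of all 18144 genes, 630, 0 and 2471 were called there in that order. With 1 library left out, they ran from 2 to 5 for PARPi+ICB, from 4 to 7 for PARPi+anti-VEGFA and from 4 to 8 for the full combination, and were 0 throughout for PARPi and ICB. With replicate number as a block, 5, 7 and 7 members were called in the 3 combinations and 0 in every other comparison. In the 3 combinations 2865, 2906 and 4142 of all 18144 genes were called with that block. The labels state no pairing of tumours by number. Same-numbered tumours of different groups had a median r of 0.0157 (46 pairs, 8 of them over 0.1). Other pairs had a median r of -0.0125 (120 pairs, 17 of them over 0.1). Such medians cannot exclude that some numbers share a batch. List counts in the combinations that moved by over 1.5 times are given beside them, and the causes were not tested. The lowest counts in a library were 13 for Siglech, 24 for Cd209a, 50 for Batf3 and 64 for Flt3, which limits the precision of these genes.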
